A study of Mus musculus with 64 samples.

Results

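Transposon insertions in Rad51b were examined in 64 samples from mice. The gene was taken as the span of its RefSeq transcript NM_009014.3, on the plus strand of mouse chromosome 12 (mm10, chr12:79297282-79814690, 517.409 kb). The RefSeq gene itself runs on to position 79848260. The deposited table held 195 lines in this span, of 385883 lines in all. After positions were aligned to the target motif and each position was counted once per sample, 192 insertions in Rad51b remained, out of 299599 on the chromosomes analysed. Of these, 107 lay in PiggyBac (PB) tumours, 70 in PB tails, 4 in Sleeping Beauty (SB) tumours and 11 in SB tails. The gene was chosen by its number of insertions in PB tails and PB tumours against SB, so that contrast is given below as a description without a test.

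Rad51b encodes a protein of homologous recombination, the repair of DNA breaks with an intact copy as template. It works in a complex with its paralogs Rad51c, Rad51d and Xrcc2. PB and SB are DNA transposons that a transposase cuts out of a donor locus and pastes elsewhere in the genome. PB inserts at the bases TTAA and SB at TA. An insertion can disrupt a gene or drive its expression, and insertions seen in many tumours are used to search for cancer genes. Tail tissue shows where insertions fall outside the tumours.

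All mice carried a constitutive transposase at the Rosa26 locus, which is active in most tissues, and an array of transposon copies (an ITP line). PB ITP mice gave 30 tumours and 12 tails, labelled IMPB, and SB ITP mice gave 11 tumours and 11 tails, labelled IMSB. The tumours were diffuse large B cell lymphomas, a cancer of mature B cells, taken mostly from mesenteric masses, lymph nodes and spleen. SB mice came from crosses of Rosa26 SB/+ mice with the ITP1-C or ITP2-M line, both homozygous for Blm m3, an allele of the Bloom helicase gene. The Blm genotype of the PB mice was not given in the sources used here, nor were the ages. The background was a mix of C57BL/6, 129Sv and FVB. Each sample was 1 library of genomic DNA, with between 756 and 10800 insertions and between 55502 and 5721832 reads on them. By its name, each sample was taken to come from a separate mouse. Sample names were written in 2 forms, joined (IMPB1) and separated (IMPB_1), and values within each form are given where it matters. As genomic DNA was sequenced, no expression was available to check the labelled tissues.

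PB reached 162 of the TTAA sites of Rad51b, and 15 of these were hit in a pair of samples. The sequences below, from the RefSeq genome GRCm38 and written 5′ to 3′ on the plus strand with the TTAA in capitals, are the positions on which the accounts of clusters, shared positions and reads turn. All lie in intron 7 except the last.
chr12:79429414-79429443, hit in PB tails 7 and 8: atgaagtagcttaTTAAgtaagtgtctggc
chr12:79431537-79431566, hit in PB tails 9 and 12: cacgaggagcgtcTTAAtaggtttttgttt
chr12:79436352-79436381, hit in PB tail 6 and PB tumour 10: gctcagcgacattTTAAgcacagcttttgt
chr12:79442101-79442130, hit in PB tumours 3 and 9: atgtcaaacacgtTTAAaaccacttgagaa
chr12:79647734-79647763, hit in PB tail 11 and PB tumour 3: ttgctccttggtcTTAAtgaccttagcacc
chr12:79525418-79525447, hit in PB tail 8 on both strands: aagatagacgtatTTAAcaagcagtcgatt
chr12:79786554-79786583, hit in PB tumour 22 (intron 9): ttaattacccactTTAAgttataatgggct

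Rad51b was hit in nearly every PB sample and more densely in tails than in tumours. At least 1 insertion was found in 28 of 30 PB tumours and in 11 of 12 PB tails, but in only 3 of 11 SB tumours and 6 of 11 SB tails. The number per sample ranged from 0 to 10 in PB tumours (median 2.5) and from 0 to 18 in PB tails (median 5). Since samples differed in their total of insertions, the level was expressed as Rad51b insertions per 1000 insertions of the sample. In PB tumours this level had a lowest value of 0, a median of 0.606 and a highest value of 1.76. In PB tails the lowest value was 0, the median 1.39 and the highest 2.46. The groups overlapped: 3 tails lay above the highest tumour, 1 tail lay below the tumour median, and 2 tumours lay above the tail median. PB tail 4 had the most insertions, 18 of 7361, which is 2.45 per 1000 (95% exact binomial interval 1.45 to 3.86). PB tail 5 had none of 2095, which allows a level of up to 1.43 per 1000 when 3 counts are taken as the limit of a count of 0. In SB tumours the level was 0 in 8 of 11 samples and 0.448 at most, and in SB tails it was 0 in 5 of 11 and 0.611 at most. Intervals and limits cover the counting error of insertions only, not the variation between samples. PCR reads carry no molecular identifiers.

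**Figure D1:**
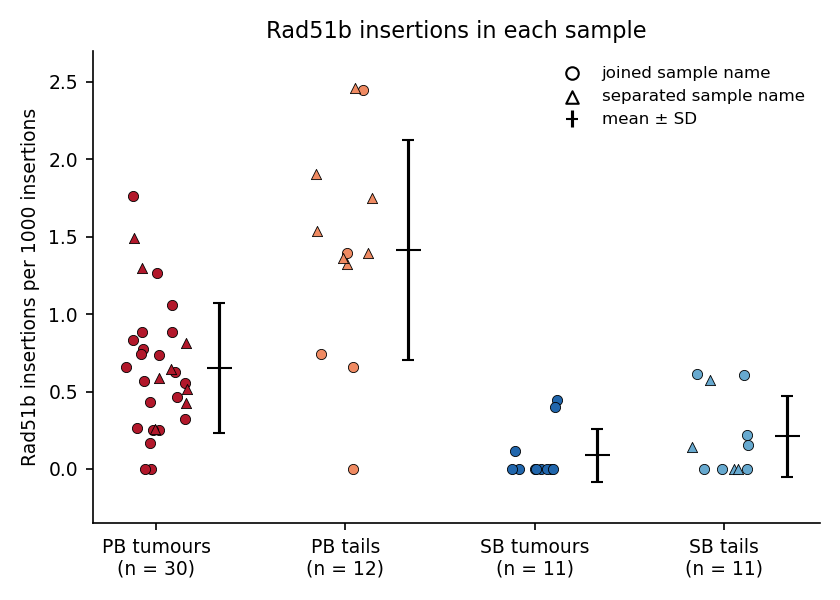
Rad51b insertions per 1000 insertions in each sample (points), by group, with the mean ± SD at the right of each group; circles and triangles mark the joined and separated forms of the sample name. PB tails average 1.41 per 1000 and PB tumours 0.652, and the SB samples lie at or below 0.611.

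Long genes receive more insertions because they hold more target sites, so observed insertions were set against the share of chromosome 12 sites that lies in the gene. Rad51b held 3240 TTAA sites, 0.471% of those on the chromosome, and 32452 TA sites, 0.436%. In PB tails 70 insertions stood against 11.1 expected from that share, a ratio of 6.32 (95% Poisson interval 4.92 to 7.98). In PB tumours 107 stood against 36.2, a ratio of 2.96 (2.42 to 3.57). SB tails held 11 against 11.7 expected, a ratio of 0.939 (0.469 to 1.68), and SB tumours 4 against 9.70, a ratio of 0.412 (0.112 to 1.06). The PB ratio was therefore 6.73 times the SB ratio in tails and 7.17 times in tumours, the contrast by which the gene was chosen. Rad51b ranked 204th of 35526 genes by its number of TTAA sites, 19th by insertions in PB tumours, and 1st in PB tails. Among the 1571 genes with at least 10 insertions expected in PB tumours, its observed over expected ratio was the 2nd highest in PB tails and the 108th in PB tumours. In SB tails it ranked 990th and in SB tumours 1429th.

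**Figure D2:**
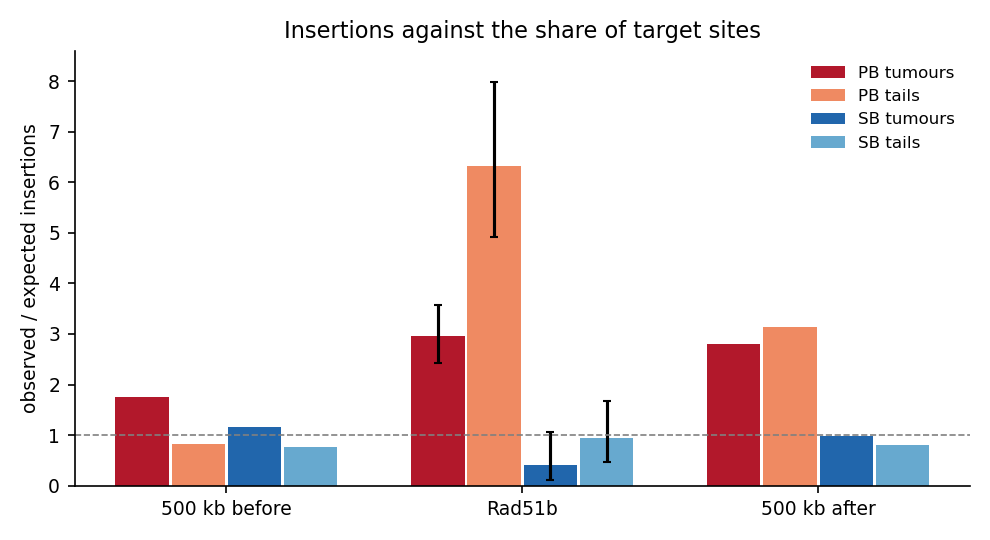
Observed over expected insertions (vertical axis) in Rad51b and in the 500 kb before and after it, for the 4 groups; bars over Rad51b carry 95% Poisson intervals and the dashed line marks a ratio of 1. The PB tails reach 6.32 in the gene, against 0.833 before it and 3.14 after it.

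The difference between PB tails and PB tumours is another contrast than the one by which the gene was chosen, but it uses the same counts. The p-values below are therefore not free of that choice, as a gene picked for many insertions in tails would tend to stand above tumours, and they support nothing on their own. The mean level was 1.41 ± 0.710 per 1000 in tails (SD, n = 12) and 0.652 ± 0.419 in tumours (SD, n = 30; two-sided permutation test, p = 0.00032). With the insertions of chromosome 12 outside the gene as denominator the permutation test gave p = 0.00046. In the fit over all genes (edgeR quasi-likelihood test with Benjamini-Hochberg adjustment), Rad51b was lower in tumours by a log2 fold change of -1.06 ± 0.290 (SE), or 2.09-fold higher in tails, with an adjusted p of 0.0123. Of 3694 genes tested, 4.39% were called and 2.3% were called as higher in tails, and Rad51b ranked 74th by p. The median log2 fold change of all genes was 0.19, so relative to it Rad51b stood at -1.26. Among 439 genes with at least 2000 TTAA sites the median log2 fold change was -0.05, 34 lay below Rad51b, and 19 were called as higher in tails against 6 as higher in tumours.

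The call was lost when insertions needed at least 10 reads (adjusted p = 0.109), when each gene counted once per sample (0.949), without positions found in several samples (0.0634), with TMM factors (0.101), in DESeq2 (0.172), and without PB tail replicate 4 (0.0783, log2 fold change -0.92). It was also lost with the first number of the sample name as a block (edgeR adjusted p = 0.0866, log2 fold change -0.96). DESeq2 on insertions with at least 10 reads made the call (log2 fold change -1.61, adjusted p = 0.00209). Relative to the median of all genes, the log2 fold change was -1.20 with TMM factors and -1.15 in DESeq2, whose scaling moved that median to 0.38 and 0.40. Within the form of the sample name, tails averaged 1.68 ± 0.406 (n = 7) and tumours 0.755 ± 0.428 (n = 8) among separated names (exact two-sided permutation test, p = 0.0022). Among joined names the values were 1.05 ± 0.924 (n = 5) and 0.614 ± 0.419 (n = 22), a difference within the spread (exact two-sided permutation test, p = 0.145).

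**Figure D3:**
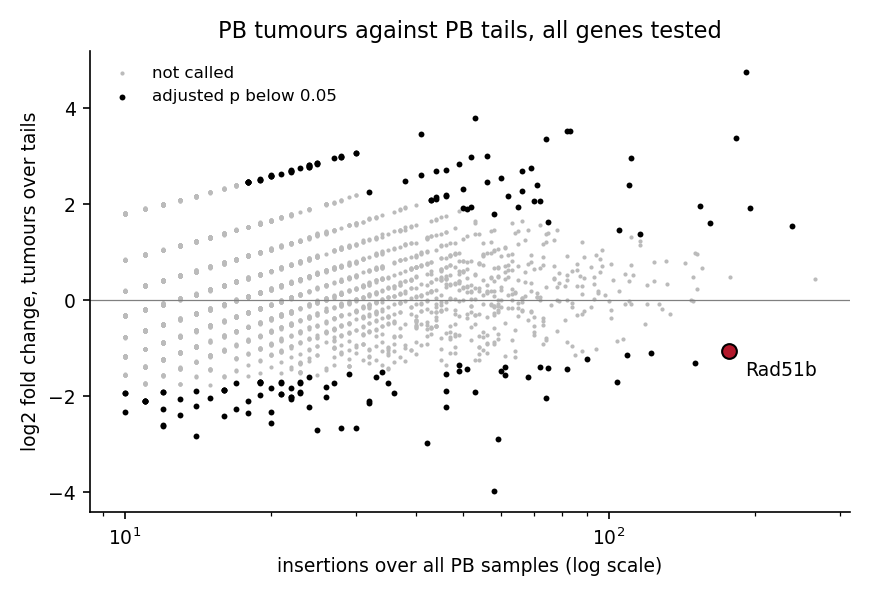
Log2 fold change of insertions in PB tumours over PB tails (vertical axis) against the insertions over all PB samples (log scale) for the 3694 genes tested by edgeR; black points are genes with an adjusted p below 0.05. Rad51b (red) has 177 insertions and a log2 fold change of -1.06.

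Insertions in SB mice were few, and the tissues did not differ beyond the spread of the samples. The level was 0.0874 ± 0.170 per 1000 in SB tumours (SD, n = 11) and 0.210 ± 0.261 in SB tails (SD, n = 11; two-sided permutation test, p = 0.215). The edgeR quasi-likelihood fit gave a log2 fold change of -1.02 ± 0.699 (SE) with an adjusted p of 0.676, where 0.758% of 1188 genes were called, 0.168% as higher in tails and 0.589% as higher in tumours. A test of whether the tumour to tail difference itself differed between PB and SB gave a log2 difference of -0.02 (edgeR, p = 0.876). No gene of 4860 was called in that test by edgeR or by DESeq2, with 463 and 129 at an unadjusted p below 0.05. The size of difference that this test could detect was not examined.

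Insertions lay along the whole gene and almost all of them in introns. The transcript has 11 exons, which together hold 11 TTAA sites, and 2 insertions fell in an exon. Both lay in exon 11, on the plus strand, in PB tumours. Intron 7, which spans 330.419 kb and holds 69.5% of the TTAA sites, held 83 of 107 insertions in PB tumours (77.6%) and 55 of 70 in PB tails (78.6%). Intron 8, with 17.5% of the sites, held 11 and 10. Of the 15 SB insertions, 9 lay in intron 7. The first of 3 equal parts of the gene held 38.0% of the TTAA sites, 39.3% of the insertions in PB tumours and 44.3% of those in PB tails. The last part held 27.6%, 27.1% and 25.7%. Within 5 kb of the start lay 2 insertions in PB tumours, 1 in a PB tail and 1 in an SB tail. Next to the borders of the span, PB tumours had insertions 500 bp inside the start and 1328 bp before it. At the other border they lay 32 bp inside the end and 7802 bp after it. The deposited gene column named 90 of the 195 lines Rad51b, up to position 79507647, and the 105 lines from position 79509284 on Intergenic. A shorter RefSeq transcript, NM_001252562.1, ends between them, at 79508654. All values here use the span of NM_009014.3, apart from the alternative fit that ran to the end of the RefSeq gene.

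**Figure D4:**
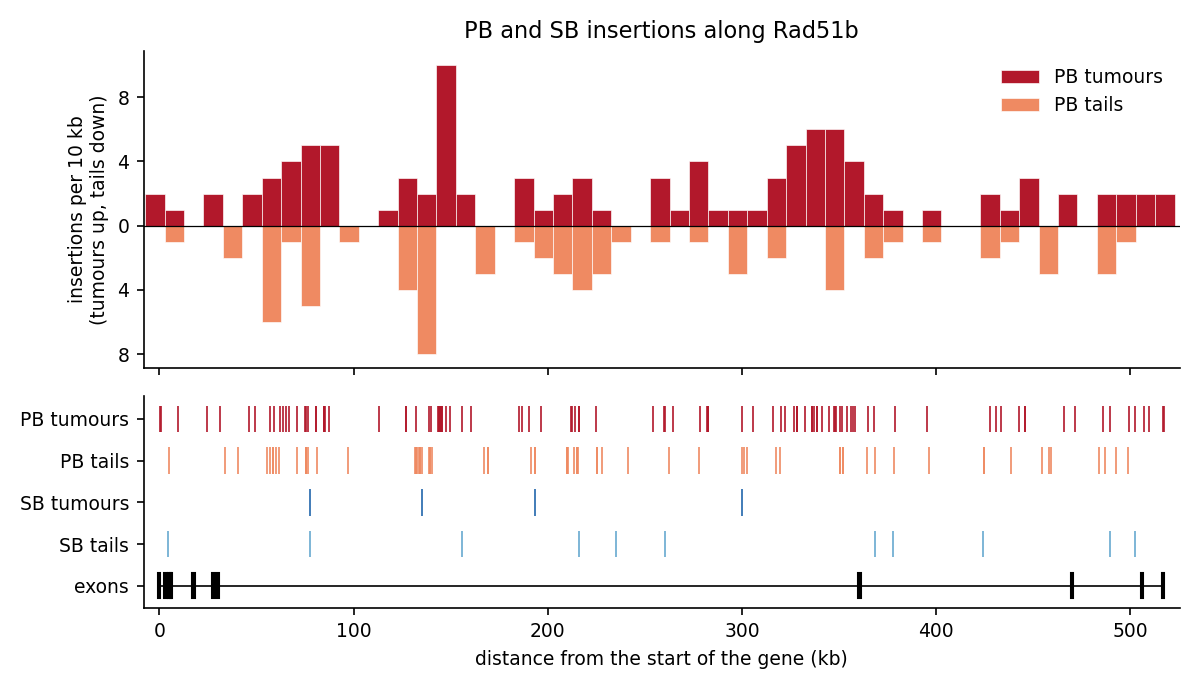
Top, PB insertions per 10 kb window of the genome grid inside Rad51b, tumours upwards and tails downwards; bottom, every insertion of the 4 groups and the 11 exons (drawn at a minimum width), by distance from the start of the gene in kb. Tails peak at 8 insertions in the window 132.718 kb from the start and tumours at 10 in the window after it.

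The tissues were also compared in windows of 10 kb, with the same limit on the p-values. Of 53 windows that touch the gene, 45 held a PB insertion, 17 only in tumours, 5 only in tails and 23 in both. These counts are a description, since the median window held 3 PB insertions and tumours held more of them than tails. The matching shares over the genome were not computed. Over the genome 644 windows had at least 10 PB insertions, the minimum for the test, and 4 of them lay in Rad51b. The window chr12:79430000-79439999 held 2 insertions in tumours and 8 in tails, and was the 1 window of the gene that was called (edgeR, log2 fold change -2.32 ± 0.534 SE, adjusted p = 0.0102). It reached the minimum of 10 only with its tail insertions, so its p-value also depends on that filter and supports nothing on its own. Over the genome 5.59% of windows were called, 1.24% as higher in tails and 4.35% as higher in tumours, and the median log2 fold change was 0.84. The 8 insertions came from 4 tails, 4 of them from PB tail 12, and without that sample the adjusted p was 0.0827. The window after it, chr12:79440000-79449999, held 10 insertions in 9 tumours and none in tails, which allows up to 0.0623 per 1000 in that group (edgeR, log2 fold change 1.80 ± 0.663 SE, adjusted p = 0.0670). That window reached the minimum through its tumour insertions alone, so the same limit holds for it. The other 2 windows, with 5 tumour and 5 tail insertions and with 6 and 4, were not called. With windows shifted by 5 kb no window of Rad51b was called (edgeR, 1 of 3 at an unadjusted p below 0.05). There 1 window held 11 tumour and 4 tail insertions, and the one before it, with 1 tumour and 8 tail insertions, was below the minimum and not tested. In windows of 50 kb the call lay elsewhere, at chr12:79500000-79549999 with 6 tumour and 11 tail insertions (edgeR, log2 fold change -1.99, adjusted p = 0.0269), and the window that holds the called 10 kb was not called (adjusted p = 0.207). The called 50 kb window also reached the minimum of 10 only with its tail insertions. DESeq2 gave no adjusted p for these windows and put none at an unadjusted p below 0.05.

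Clusters were also formed without a grid, as runs of at least 5 PB insertions with gaps of at most 2 kb. There were 8 such clusters, all in intron 7, holding 66 of 177 PB insertions (37.3%), with 33 from tumours and 33 from tails. These are descriptions, since the runs were set by the insertions themselves. At 131.865 kb from the start, a cluster of 3.393 kb held 8 insertions of 6 tails and 1 of a tumour, among them the positions shared by tails 7 and 8 and by tails 9 and 12 printed above. A few kb further, at 143.7 kb, a cluster of 3.677 kb held 9 insertions of 8 tumours and none of a tail. Between them, at 139.083 kb, lay 6 insertions, 2 of tumours and 4 of tails. A cluster at 335.826 kb held 5 insertions of 3 tumours and none of a tail. In this cluster and the one at 143.7 kb, the count of 0 allows up to 0.0623 per 1000 in PB tails. The tails held fewer insertions in all, 48120 against 156880 in PB tumours. Of the other clusters, the pair with 12 insertions each held 6 from each tissue, or 5 from tumours and 7 from tails.

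The 15 TTAA positions hit in a pair of PB samples held 30 of the 177 PB insertions, 16.9%. Over all PB insertions, 8.91% lay at positions hit in more than 1 PB sample. The gene was chosen by its number of PB insertions, and more insertions per site make shared positions more likely. These shares are therefore a description, and the share expected at the density of this gene was not computed. In 6 of the 15 positions both samples were tumours, in 5 both were tails, and in 4 there was 1 of each. The strand was the same in 9 of the 15. At the position of PB tumours 3 and 9 both insertions lay on the minus strand, with 204 and 44 reads. At the position of PB tail 6 and PB tumour 10 both lay on the plus strand, with 147 and 10 reads. No SB position was shared. Around the TTAA, the base 3 positions before the motif was T at 42.0% of the positions hit (95% exact binomial interval 34.28 to 49.97) and at 34.4% of all TTAA sites of the gene. The base 3 positions after it was A at 48.1% (40.2 to 56.1) of the positions hit and at 33.1% of all sites. The first interval includes the share over all sites and the second lies above it.

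The orientation of the insertions showed no preference that the samples could resolve. Rad51b is read from the plus strand, and 58 of 107 insertions in PB tumours lay on that strand, 54.2% (95% exact binomial interval 44.3 to 63.9; sign-flip permutation test over samples, p = 0.442). In PB tails 33 of 71 did, 46.5% (34.5 to 58.7; exact sign-flip permutation test, p = 0.578). There 1 position that was hit on both strands in 1 sample counted for each. Over all insertions the plus strand held 49.9% in PB tumours and 49.2% in PB tails. Among SB insertions 1 of 4 in tumours and 5 of 11 in tails lay on the plus strand.

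Rad51b insertions carried few reads in PB tumours, as did the insertions of that group as a whole. The median was 5 reads in PB tumours, with a range from 2 to 949, and 20 in PB tails, with a range from 2 to 147. The medians over all insertions of these groups were 6 and 21. At least 10 reads were found on 35.5% of the Rad51b insertions in PB tumours and on 64.3% in PB tails, against 36.2% and 71.4% of all insertions. To take out depth, reads were ranked within each sample from 0 to 100. The mean rank of Rad51b insertions was 41.7 ± 17.2 (SD) over the 28 PB tumours with an insertion and lay below 50 in 20 of them (sign-flip permutation test, p = 0.0173). With the median rank in place of the mean, p was 0.0653. In the 11 PB tails with an insertion the mean rank was 51.8 ± 16.6 (SD, exact sign-flip permutation test, p = 0.729). The difference between tumours and tails, -10.1, was within the spread (permutation test, p = 0.105).

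The insertion with the most reads lay in intron 9 of PB tumour 22, 489.285 kb from the start, on the minus strand, with 949 reads. It ranked 41st of the 6763 insertions of that tumour. Among tails, PB tail 8 had an insertion with 146 reads in intron 7, the 15th of its 6795 by reads, found on both strands. PB tumour 3 held the next after it in tumours, with 204 and 182 reads at ranks 924 and 1247 of 10800, inside the clusters at 143.7 and 139.083 kb. No Rad51b insertion was thus the leading insertion of its sample. PB tail 4, which had the most Rad51b insertions, carried a median of 6 reads on them, and 3 of its 18 had at least 10 reads.

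**Figure D5:**
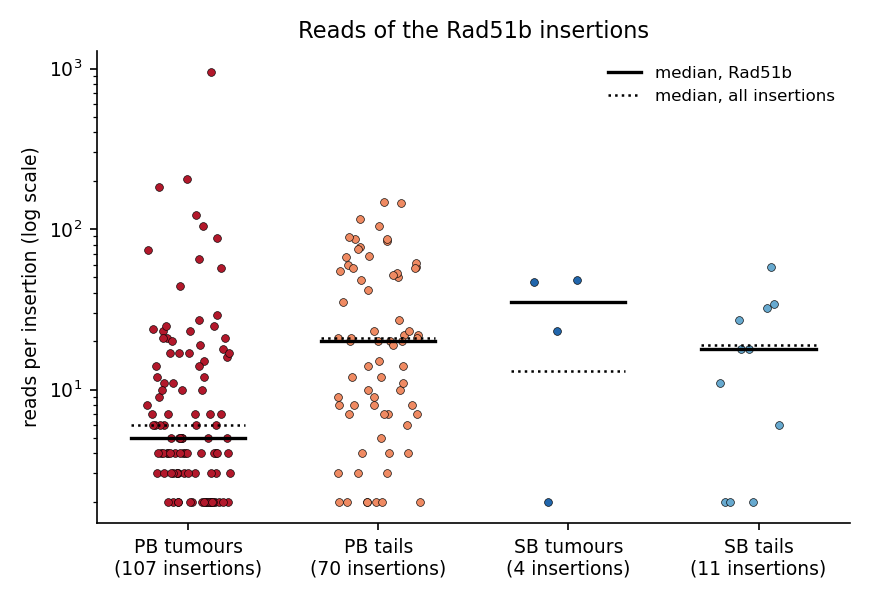
Reads of each Rad51b insertion (log scale) in the 4 groups, with the median of the Rad51b insertions (solid) and of all insertions of the group (dotted). The highest point, 949 reads, is from PB tumour 22, and the medians of tumours (5) and tails (20) lie close to those of all insertions (6 and 21).

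The level in PB tumours did not differ between the sites of the body beyond the spread. Mesenteric masses and nodes averaged 0.737 ± 0.472 per 1000 (SD, n = 15), spleens 0.485 ± 0.248 (n = 6) and other nodes and masses 0.621 ± 0.413 (n = 9; permutation test of the variance between sites, p = 0.46). The highest tumour, at 1.76 per 1000, was a mesenteric mass with 10 insertions, and both tumours with none were a mesenteric mass and a cervical node.

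In tails the ratio of observed over expected insertions was lower on either side of the gene than inside it. In the 500 kb before it, PB tails had 8 insertions against 9.60 expected, a ratio of 0.833, and PB tumours 55, a ratio of 1.75. In the 500 kb after it the ratios were 3.14 in tails (22 insertions) and 2.79 in tumours (64 insertions), both above 1. That stretch begins with the rest of the RefSeq gene, up to position 79848260. Of the neighbouring genes, 2 had at least 10 PB insertions and could be tested. Mpp5, a scaffold protein of cell polarity, had 13 in tumours and 3 in tails (edgeR, log2 fold change 0.32, adjusted p = 0.849). Actn1, an actin crosslinker, had 6 and 5 (-1.02, adjusted p = 0.387). Neither was called. Zfyve26, on the minus strand with its start just before that of Rad51b, held 5 tumour insertions and 1 tail insertion. Gm36048, a predicted gene that lies inside Rad51b, held 1 and 2, which are counted for both genes.

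Few other genes of homologous recombination could be tested, and none was called. Of 25 genes listed, 5 had enough PB insertions to be tested by edgeR. None of the 5 was called there, where 4.39% of all 3694 genes were, or in DESeq2. So few genes cannot set the list apart from that share. In edgeR 2 had an unadjusted p below 0.05, and in DESeq2 none. The median log2 fold change of the 5 was 0.21, beside 0.19 for all genes. Bard1, the partner of BRCA1, had 15 insertions in tumours and 14 in tails against 6.64 and 1.97 expected (not called, log2 fold change -1.37 ± 0.494, edgeR adjusted p = 0.0827). Rad50, of the complex that binds broken DNA ends, had 13 in tumours and none in tails (2.08 ± 0.716, edgeR adjusted p = 0.0977). Nbn, of the same complex, had 13 and 4 (log2 fold change -0.007), the helicase gene Brip1 had 21 and 5 (0.31), and Rad54b had 12 and 3 (0.21). For these the edgeR adjusted p ran from 0.844 to 0.999. Raw counts are higher in tumours in part because PB tumours held 156880 insertions in all and PB tails 48120. The paralogs of Rad51b are short and held few insertions: Rad51c 6 in tumours and none in tails, Rad51d 2 and 1, Xrcc2 1 and 1, and Xrcc3 none. With 209 TTAA sites at most, these paralogs were expected to receive 3.40 insertions or fewer in PB tumours and 0.860 or fewer in PB tails. Blm, the gene that carries the m3 allele in the SB mice, held 7 in PB tumours and none in PB tails, against 5.67 and 1.75 expected.

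The genes most like Rad51b were sought among genes with at least 10 insertions expected in PB tumours, by the distance over 4 values, the log2 of observed over expected insertions (each plus 1) in the 4 groups. The nearest were Maml2, a coactivator of Notch signalling, Filip1l, Cmss1, Stard13 and Tcf4, a transcription factor, at distances from 0.915 to 1.26. Filip1l and Cmss1 overlap and so share insertions. In PB tails their observed over expected ratios ran from 3.18 (Cmss1) to 4.74 (Stard13), below the 6.32 of Rad51b. In PB tumours they ran from 2.05 (Stard13) to 3.27 (Tcf4). In SB tumours the ratios were between 0.352 (Cmss1) and 0.928 (Stard13). Maml2, the nearest, had 57 insertions in PB tumours, 24 in PB tails, 3 in SB tumours and 5 in SB tails.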

How the data were processed

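In QiSeq, splinkerette PCR amplifies each transposon end with the flanking genomic DNA, and the products were read on a MiSeq in paired-end mode. The authors deposited raw read counts, not normalized, 1 line per insertion, on mm10. No line had fewer than 2 reads. The aligner, the insertion caller and its filters are not given in the sources used here. A normalized coverage (1 further column per sample line) was not used. Each line was assigned to the closest target motif at most 5 bp away and counted once per sample and motif. Chromosomes X, Y and 14 (taken as the donor chromosome, as its density of insertions was the highest among autosomes) were left out.

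Insertions per sample and gene were tested with edgeR 4.0.16 (quasi-likelihood, total insertions as library size, at least 10 insertions per gene, Benjamini-Hochberg adjustment, threshold 0.05), with DESeq2 1.42.0 as an alternative, in R 4.3.3. The SE was taken from the fitted coefficient and its F value. Single values were tested over samples with two-sided permutation tests (100000 resamples, exact for groups of under 10 samples and for sign flips over up to 12) in Python 3.11.15 with numpy 2.4.6, pandas 2.3.3, scipy 1.17.1 and matplotlib 3.10.9. On simulated data, edgeR recovered 65 of 200 genes changed 4-fold in the PB comparison, with 7 false calls beside these 65 (3221 genes). In the SB comparison it recovered 49 of 200, with 7 false calls beside these 49 (962 genes). The spread between samples was fixed in the simulation and not taken from the data. Expected insertions used the share of the target sites of a gene's own chromosome that lie in the gene, from the RefSeq annotation of GRCm38. For Rad51b this is chromosome 12. Samples within a group were taken to come from separate mice, by their names, and were numbered in accession order. Alternatives covered reads, scaling, test, filter, name form, region, shared positions and each sample left out.

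The gene, the lists and the tests were chosen with earlier results of these data known. Neighbouring genes with at least 10 PB insertions, the paralogs of Rad51b, Blm and the 5 genes nearest in pattern are named by a rule. Zfyve26, Gm36048 and the 5 tested recombination genes were named after their values were seen.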

Additional observations from a re-analysis of the deposited data

How the results depend on the processing

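The values for PB tumours against PB tails kept their direction in all 11 alternatives and in all 42 fits that left out 1 sample. These fits reuse the counts by which the gene was chosen, so their p-values have the limit given in the Results. The log2 fold change of -1.06 was -0.75 in DESeq2, -0.82 with TMM factors, -0.96 with at least 10 reads, -0.32 with each gene counted once per sample and -0.92 without shared positions, with adjusted p from 0.0634 to 0.949 in these 5 and, apart from the block below, from 0.0017 to 0.0474 in the others. Leaving out 1 sample gave -1.15 to -0.92, with adjusted p from 0.0069 to 0.0783, and the call was lost only without PB tail replicate 4. The difference in level, -0.763 per 1000, was -0.434 when the names were of the joined form (p = 0.145 by exact permutation), the 1 of its 6 alternatives that lost the call, and lay between -0.891 and -0.668 when 1 sample was left out (permutation p at most 0.00102). For SB no alternative was called, and leaving out 1 sample gave a difference in level of -0.159 to -0.0827. The interaction of -0.02 turned to 0.67 in DESeq2, 0.37 with TMM factors, 0.29 with each gene counted once per sample and 0.10 without shared positions, none called. The read rank in PB tumours minus 50, which was -8.28, became -7.35 with the median rank, no longer past the threshold. The plus share in PB tumours, 4.21 percentage points above 50, became -1.71 as a mean over samples, and that in PB tails was 0 points from 50 with at least 10 reads. With windows shifted by 5 kb, 0 windows of Rad51b were called in place of 1, and leaving out 1 sample gave 0 to 1. The median of the recombination list was -0.20 with at least 10 reads, over 2 genes. The cause of these changes was not tested. DESeq2 gave no adjusted p for the windows, and with at least 10 reads no window of Rad51b reached the minimum, so these gave no value. The labels give no replicate numbers. Sample names share a first number whose meaning is not given, and 6 of 11 such numbers in PB held both tissues. With that number as a block, added after seeing the data, the log2 fold change was -0.96 (edgeR adjusted p = 0.0866, 85 genes called in place of 162), and -0.34 in SB (adjusted p = 0.930). The number of insertions sets the precision, and with 4 SB tumour insertions the tissues could not be told apart in SB mice.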
